A study of Mus musculus with 24 samples.

Results

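Expression of Apoe, of 5 enzymes of cholesterol synthesis (Hmgcs1, Idi1, Fdft1, Sqle and Cyp51) and of their regulator Insig1 was followed across the neurons, astrocytes, oligodendrocyte lineage and immune cells of mouse motor cortex and dorsal striatum, by stage of motor training. The 7 genes were taken by symbol from the 54235 features of the deposited count matrices, and each symbol matched 1 feature. Motor cortex came from Fos-CreER::Ai9 mice and dorsal striatum from Arc-CreER::Ai9 mice, lines in which 4-hydroxytamoxifen switches on the Ai9 tdTomato reporter in cells that use the Fos or the Arc promoter. Mice had learned a forelimb reaching task for 2 days (early) or 8 days (late) or were untrained (control), and every group, the untrained mice included, received 4-hydroxytamoxifen. Tissue was taken 3 days after labelling. The suspension was freed of dead cells, and the labels name no sorting on the reporter, so the classes below hold labelled and unlabelled cells. Because each region has its own driver line, region and line cannot be told apart.

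Each pool joined tissue from 2 mice, kept apart by hemisphere, and there were 2 pools per region and stage, 12 in all. The pool was the replicate. The files held counts for 23 of 24 libraries, and the right hemisphere of striatal control pool 1 was not analysed here. In cortical control pool 1 the left hemisphere gave 469 cells that passed the cell filter and the right gave 4470. Libraries totalled 5260446 to 30470621 UMIs (unique molecular identifiers, 1 per captured RNA molecule), and 98612 cells were kept, 47985 from cortex and 50627 from striatum. At most 1.5% of the barcodes of 2 libraries were shared. Shared barcodes sorted the pools into class A (pool 1 of the control and of the late group in each region) and class B (the other 8 pools). Per 1e6 barcode pairs, libraries shared 1.31 barcodes within class A, 0.261 within class B and 0.0247 between classes. The protocol names version 2 or 3 of the 10x 3′ kit, and the class was used as a stand-in for the kit. No early pool fell in class A. By sequencing batch label, pool 2 of the early group shared no label with a control or late pool in either region. Pool 2 of the late group shared none with a control or early pool. No label held both an early and a late pool, so no late against early ratio could be taken within a label. The part of the label in those differences was not tested. Nothing in the labels says how far the pools of a group were independent beyond their mice, so p-values measure the spread between these pools only.

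Cells build cholesterol from acetyl-CoA through mevalonate and squalene. When sterols run low, SREBP2 and its escort SCAP leave the endoplasmic reticulum and the freed transcription factor raises the genes of the pathway; INSIG proteins hold the complex back. The brain makes its own cholesterol, and astrocytes release it on particles carried by apolipoprotein E, the product of Apoe. Of the members, Hmgcs1 encodes the cytosolic HMG-CoA synthase early in the pathway, Idi1 the isopentenyl diphosphate isomerase, and Fdft1 squalene synthase, the first step committed to sterols. Sqle encodes squalene epoxidase, Cyp51 the lanosterol demethylase, and Insig1 an INSIG protein that is itself a target of SREBP. For short, the 5 enzymes and Insig1 together are called the 6 synthesis genes below, although Insig1 is no enzyme of the pathway and stands in the list of SREBP control.

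In the GENCODE M21 annotation (GRCm38), the genes lie apart from one another. Apoe (ENSMUSG00000002985) is at chr7:19696109-19699188 on the minus strand, Hmgcs1 (ENSMUSG00000093930) at chr13:119690379-119708260 on the plus strand and Idi1 (ENSMUSG00000058258) at chr13:8885501-8892451 on the plus strand. Fdft1 (ENSMUSG00000021273) is at chr14:63145150-63179578 on the minus strand and Sqle (ENSMUSG00000022351) at chr15:59315077-59331192 on the plus strand. Cyp51 (ENSMUSG00000001467) is at chr5:4081145-4104746 on the minus strand and Insig1 (ENSMUSG00000045294) at chr5:28071363-28078662 on the plus strand. Fdft1 overlaps Ctsb, Cyp51 overlaps Akap9, Hmgcs1 overlaps the antisense gene Gm48342 and Idi1 overlaps Gm48574. Whether the counting used strand is not given in the sources used here, and without it the reads of such pairs cannot be told apart.

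The promoters of the pathway genes are shown because SREBP acts on them together with the CCAAT-binding factor NF-Y, and because these genes rise and fall together across the cell classes below. The lines give the 250 bases before the RefSeq start site (GRCm38.p6), 5′ to 3′ on the strand of the gene, for Hmgcs1 (chr13:119690101-119690350, plus), Insig1 (chr5:28071162-28071411, plus), Idi1 (chr13:8885356-8885605, plus) and Cyp51 (chr5:4104698-4104947, minus). Capitals mark matches, on either strand, to 3 motifs: TCACNCCAC (a sterol element), CACGTG (an E-box) and CCAAT.
Hmgcs1: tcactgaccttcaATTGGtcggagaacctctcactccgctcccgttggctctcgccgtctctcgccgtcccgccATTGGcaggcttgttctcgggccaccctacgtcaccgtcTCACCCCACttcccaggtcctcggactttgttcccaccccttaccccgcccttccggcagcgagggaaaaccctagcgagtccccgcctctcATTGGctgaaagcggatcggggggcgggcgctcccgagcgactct
Insig1: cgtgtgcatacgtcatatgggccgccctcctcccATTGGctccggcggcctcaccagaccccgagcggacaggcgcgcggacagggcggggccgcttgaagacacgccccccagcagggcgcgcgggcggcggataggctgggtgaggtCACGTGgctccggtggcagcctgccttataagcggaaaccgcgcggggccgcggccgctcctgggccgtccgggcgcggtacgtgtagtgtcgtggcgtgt
Idi1: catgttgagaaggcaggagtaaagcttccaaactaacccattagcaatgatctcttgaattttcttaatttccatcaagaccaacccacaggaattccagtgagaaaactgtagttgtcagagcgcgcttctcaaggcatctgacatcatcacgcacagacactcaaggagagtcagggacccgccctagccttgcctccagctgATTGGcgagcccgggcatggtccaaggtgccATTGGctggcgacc
Cyp51: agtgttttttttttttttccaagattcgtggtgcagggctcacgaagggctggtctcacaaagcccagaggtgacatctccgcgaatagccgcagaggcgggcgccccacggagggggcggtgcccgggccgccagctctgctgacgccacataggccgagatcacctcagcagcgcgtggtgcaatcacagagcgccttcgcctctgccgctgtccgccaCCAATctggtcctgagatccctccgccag
The motifs were chosen after the sequences were seen. Hmgcs1 held the sterol element with its first base at -137 and CCAAT at -237, -176 and -45, counted from the start site. Insig1 held the E-box at -101 and CCAAT at -216, Idi1 held CCAAT at -45 and -14, and Cyp51 held CCAAT at -29. Over windows that also take in the 50 bases after the start, 1.24% of 32544 RefSeq promoters held the sterol element, 7.17% the E-box and 37.4% CCAAT. Of the 21 genes of the listed mevalonate and sterol pathway, 16 had an entry, with 19 promoters, of which 1 held the sterol element, 3 the E-box and 15 CCAAT. None of the 3 Apoe promoters held any of the 3 motifs. No entry was matched for Sqle or Fdft1.

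Clusters were named from lists of marker genes, so a name such as astrocyte stands for astrocyte-like cells. Cortex gave 12709 glutamatergic neurons, 4456 GABAergic interneurons, 3044 astrocytes, 5454 oligodendrocyte precursors, 10139 microglia and 611 perivascular macrophages. Striatum gave 21497 spiny projection neurons, 2565 GABAergic interneurons, 9221 neuroblasts or progenitors, 3372 astrocytes, 2751 oligodendrocyte precursors, 5024 microglia and 231 perivascular macrophages. The class of neuroblasts or progenitors, named from markers of both, was not split. It is called neuroblasts below for short. Its clusters differed in the levels of Apoe, Hmgcs1 and Idi1, so its values stand for a mix. A cortical cluster of 4820 cells led by Rprm and Foxp2 carried 6 of 7 glutamatergic markers but also leading markers of other types, and is called the Foxp2 cluster. A cluster with Mag, Cldn11 and Enpp6 among its leading genes in each region (762 cells in cortex, 615 in striatum) carried all 6 markers of committed oligodendrocyte precursors together with markers of oligodendrocytes, and is called the Enpp6 cluster. Of the striatal GABAergic interneurons, 202 cells formed a cluster led by Slc5a7 and Slc18a3, genes of cholinergic neurons, so the class is not purely GABAergic. Mature oligodendrocytes were few (151 and 117 cells) and were not tested.

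Levels are given as CPM, the UMIs of a gene per 1e6 UMIs of the class summed over a pool, as mean ± SD over pools (n = 6 unless stated). They were compared between classes for 1 gene at a time, since 3′ counts are not on a scale for comparing genes, and as a description without a test. Cortical astrocytes held the highest mean of each of the 6 synthesis genes among the cortical classes, and microglia were at or near the bottom, as were perivascular macrophages except for Insig1 (69.2 ± 34.5 CPM). Among the 8 classes tested in striatum no single one led, and astrocytes, the Enpp6 cluster and neuroblasts or progenitors took the first places. Apoe followed another order, with perivascular macrophages first, astrocytes second and neurons last in both regions. In control pool 1 the cortical astrocyte class also held 35 cells of a small cluster rich in microglia markers, described with the stages below. With the large cluster alone, Hmgcs1 averaged 685 ± 73.1 CPM and Apoe 11336 ± 3342.

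Hmgcs1 in cortical astrocytes was 452 CPM and 752 CPM in control pools 1 and 2, 659 and 611 in the early pools, and 766 and 723 in the late pools. Every pool of the class exceeded the highest pool of glutamatergic neurons, which ranged from 166 to 275 CPM. The mean of 661 ± 118 CPM in astrocytes exceeded that of the Enpp6 cluster, 451 ± 258, in 5 of 6 pools. The Foxp2 cluster followed at 334 ± 73.5 CPM, above glutamatergic neurons (229 ± 47.3) in 6 of 6 pools, and these above GABAergic interneurons (196 ± 42.0) and oligodendrocyte precursors (180 ± 55.4), whose spreads overlapped. Microglia held 19.5 ± 3.92 CPM and macrophages 16.4 ± 10.4, with the order split evenly over 6 pools. In striatum the Enpp6 cluster averaged 362 ± 217 CPM and astrocytes 282 ± 104, and each was higher in 3 of 6 pools. Neuroblasts (210 ± 79.7), GABAergic interneurons (197 ± 58.2, and 184 ± 58.1 without the cluster led by cholinergic genes), oligodendrocyte precursors (165 ± 50.8) and spiny projection neurons (130 ± 48.2) came next, and microglia were at 18.1 ± 7.49.

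Idi1, the isomerase, was also highest in cortical astrocytes. Its 6 astrocyte pools held 104, 292, 214, 172, 277 and 247 CPM (control 1 and 2, early 1 and 2, late 1 and 2), each above the Enpp6 cluster of the same pool, which averaged 115 ± 47.2. Oligodendrocyte precursors were at 66.6 ± 14.9, glutamatergic neurons at 31.3 ± 3.29 and microglia at 3.79 ± 1.51 CPM. In striatum astrocytes (119 ± 25.0), the Enpp6 cluster (109 ± 51.3) and neuroblasts (108 ± 19.6) did not differ beyond their spread, and spiny projection neurons held 21.8 ± 6.56.

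Fdft1 and Sqle, neighbours in the pathway on either side of squalene, shared the cortical astrocyte peak. Fdft1 was at 162, 272, 211, 175, 258 and 212 CPM in the astrocyte pools in the same order, above the Foxp2 cluster (114 ± 16.3) in 6 of 6 pools. The Enpp6 cluster held 102 ± 31.7 CPM of Fdft1 and microglia 4.32 ± 0.942. Sqle was at 129, 232, 212, 184, 193 and 249 CPM in those astrocyte pools and averaged 155 ± 43.1 in the Enpp6 cluster and 99.9 ± 13.6 in oligodendrocyte precursors. In striatum Fdft1 averaged 110 ± 22.9 CPM in neuroblasts, 108 ± 34.2 in the Enpp6 cluster and 108 ± 11.0 in astrocytes, an order that the pools do not settle. Sqle there averaged 147 ± 34.3 in the Enpp6 cluster and 114 ± 24.4 in astrocytes, and striatal macrophages held no UMI of it in any pool.

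Cyp51, which acts after squalene has been closed into lanosterol, was at 80.9, 206, 225, 160, 140 and 217 CPM in cortical astrocytes, a spread in which control pool 1 was lowest. It averaged 131 ± 79.5 CPM in the cortical Enpp6 cluster, where early pool 1 alone held 285. In striatum the Enpp6 cluster (125 ± 50) and neuroblasts (106 ± 32.5) were above astrocytes (75.2 ± 30.6). Insig1, the brake on SREBP, was at 263, 419, 321, 240, 323 and 328 CPM in cortical astrocytes and higher there than in the Enpp6 cluster (128 ± 41.2) in 6 of 6 pools. Oligodendrocyte precursors held 83.2 ± 26.1 CPM of Insig1, glutamatergic neurons 42.6 ± 9.35 and microglia 20.5 ± 6.19. Striatal neuroblasts (102 ± 8.76), astrocytes (98.7 ± 26.3) and the Enpp6 cluster (90.5 ± 31.8) overlapped for Insig1.

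**Figure D1:**
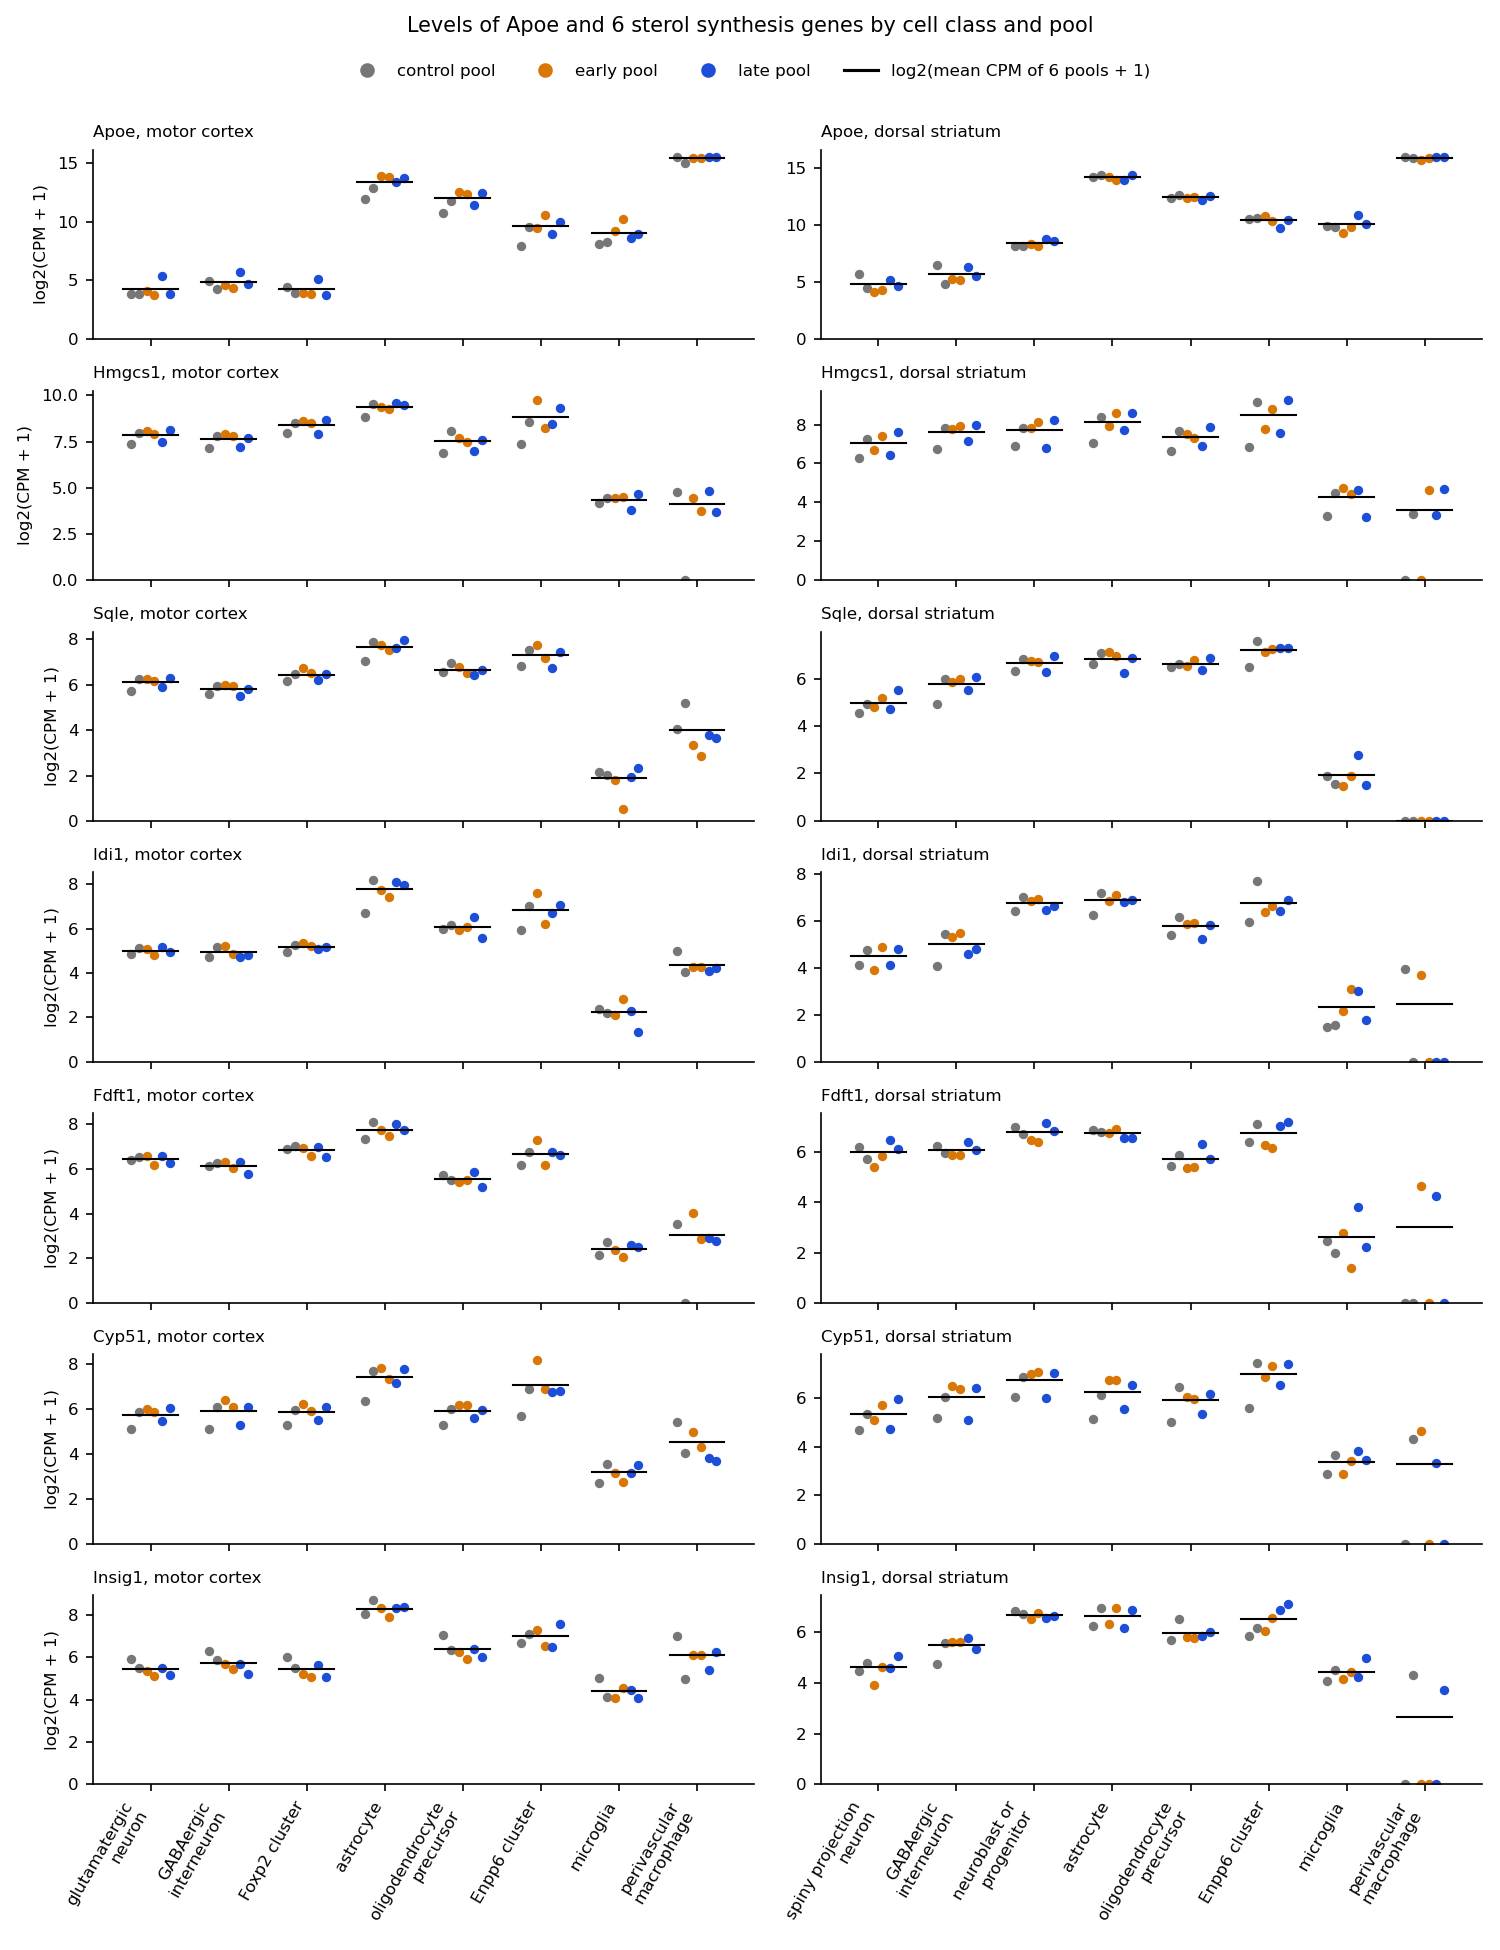
Level of each gene by cell class and pool, 1 point per pool, as log2(CPM + 1) on the vertical axis, with the classes of motor cortex and dorsal striatum along the horizontal axes. Cortical astrocytes led for the 6 synthesis genes (Hmgcs1 661 ± 118 CPM), and perivascular macrophages led for Apoe in both regions (43009 ± 5625 and 59549 ± 4454 CPM).

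Apoe was highest in perivascular macrophages, at 43009 ± 5625 CPM in cortex and 59549 ± 4454 in striatum. Astrocytes held 10763 ± 4312 and 18489 ± 2490 CPM, oligodendrocyte precursors 4019 ± 1676 and 5459 ± 635, and the Enpp6 cluster 774 ± 438 and 1371 ± 311. Macrophages were above astrocytes in 6 of 6 pools of each region. Microglia carried 529 ± 330 CPM in cortex and 1048 ± 415 in striatum, far below the macrophages that share their myeloid markers. Striatal neuroblasts held 329 ± 62.5 CPM as a class, striatal GABAergic interneurons 52.2 ± 25.2 (58.0 ± 27.4 without the cholinergic cluster) and spiny projection neurons 27.9 ± 13.3. Cluster means within the neuroblast or progenitor class ranged from 66.8 ± 49 CPM (n = 6) to 859 ± 223 (n = 4). A cluster of that class led by Dcx held 88.3 ± 21 CPM (n = 4).

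In cortical neurons Apoe was at 18.2 ± 11.0 CPM (glutamatergic) and 27.9 ± 12.1 (GABAergic). As a share of the astrocyte level in the same pool, this was a median of 0.14% in glutamatergic neurons. The astrocyte markers Gja1, Gjb6 and Aqp4, which neurons lack, stood at 0.0502%, 0.0433% and 0.0219% by the same measure, Aldoc at 0.702% and Aldh1l1 at 5.72%. The part of the neuronal Apoe that came from free RNA was not tested.

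Across 29 combinations of region and class, the 3 genes most like each member in mean log2 CPM were found among 9973 genes. This is a description over classes that share libraries. Hmgcs1 was nearest to Fdps (Pearson r = 0.946), Sqle (0.942) and Fdft1 (0.932). Sqle was nearest to Fasn (0.949) and Hmgcs1 (0.942), and Fdft1 to Hmgcs1 (0.932) and Cyp51 (0.93). Cyp51 followed Fdft1 (0.93), Idi1 (0.896) and Bicd1 (0.891). Idi1 followed Tmem80 (0.899), Cyp51 (0.896) and 4930402H24Rik (0.877), and Insig1 followed Msmo1 (0.822), Fasn (0.82) and Idi1 (0.82). Apoe was nearest to Abca1 (0.941), the transporter that loads lipid onto apolipoproteins, then to Aldh9a1 (0.882) and Zfp36l2 (0.864). Among the 6 synthesis genes r lay between 0.685 and 0.942, and between Apoe and those 6 it lay between -0.347 and 0.0749.

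The rest of the pathway was laid out in the same way. Of the 21 genes from acetyl-CoA to cholesterol, 12 had their highest mean in cortical astrocytes among the 8 classes tested in cortex, 6 in the Enpp6 cluster (among them Acat2, Mvk, Mvd, Fdps and Lss), 2 in GABAergic interneurons (Ggps1 and Pmvk) and 1 in microglia (Ebp). In striatum 12 of 21 were highest in the Enpp6 cluster and 5 in astrocytes. Msmo1, a sterol C4-methyl oxidase, reached 1392 ± 350 CPM in cortical astrocytes. Of the 10 genes of SREBP control and uptake, 4 were highest in astrocytes in each region. Srebf2, which encodes SREBP2, was at 171 ± 23.4 CPM in cortical astrocytes, and Insig1 had its highest cortical mean there as well. Of the 20 genes of export, transport and turnover, macrophages were highest for Apoe, Abca1, Ch25h, Npc2 and Nr1h2 in both regions. Apod reached 23257 ± 3092 CPM in striatal fibroblasts, Clu 3244 ± 924 in striatal astrocytes and Npc2 1131 ± 91.3 in cortical macrophages.

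Stages were compared within a region and class with edgeR's quasi-likelihood test on summed counts, over all genes that passed a filter on low counts, with stage and barcode class as terms. Calls were made below an adjusted p of 0.05. Of the 56 pairs of a member and a class in each region, 49 passed the filter. Apoe passed in all 8 classes of each region, and the pairs left out were of synthesis genes in macrophages or microglia. No pair was called in any of the 6 comparisons. Over all genes, the share called was 0.00574% for cortex early against control, 0.0437% for late against control and 0.0046% for late against early, and 0.0821%, 0.0274% and 0.0916% for the same comparisons in striatum. Before adjustment, 3, 7 and 1 of 49 member pairs in cortex and 5, 6 and 11 in striatum had a p under 0.05. The shares of all gene and class pairs at that cut were 2.97%, 4.17% and 1.85% in cortex and 5.52%, 6.32% and 7.38% in striatum. DESeq2 called 1 pair, Apoe in cortical astrocytes, late against control.

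In 49 pairs, both early pools lay above both control pools in 6 and below them in 4 in cortex, where 15.5% and 17.2% of all gene and class pairs did so. For cortex late against control the counts were 2 and 2 (7.06% and 13.5% of all pairs), and for late against early 7 and 10 (9.34% and 15.8%). In striatum the counts were 5 and 6 for early against control (25% and 16.8%), 4 and 3 for late against control (8.16% and 8.16%), and 14 and 6 for late against early (18.5% and 27.8%). The count of 14 of 49, higher in both late than in both early striatal pools, was the one furthest above the share of all pairs. The 3 comparisons of a region share pools. In simulated counts with 200 genes changed by 1 on the log2 scale, late against control, the fit recovered 84.5% of them in cortical glutamatergic neurons and 95.5% in spiny projection neurons. False calls numbered 21 and 14 in these, and 0 to 9 in each of the classes that follow. The fit recovered 43% and 45% in cortical and striatal oligodendrocyte precursors, 37% in striatal astrocytes, 3% and 8% in microglia and 0% in cortical astrocytes. A change of that size in microglia or cortical astrocytes was therefore rarely detectable with these pools. The changed genes were drawn from those with a mean above 3 on the log2 CPM scale. Cortical astrocytes were simulated with their small cluster included.

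**Figure D2:**
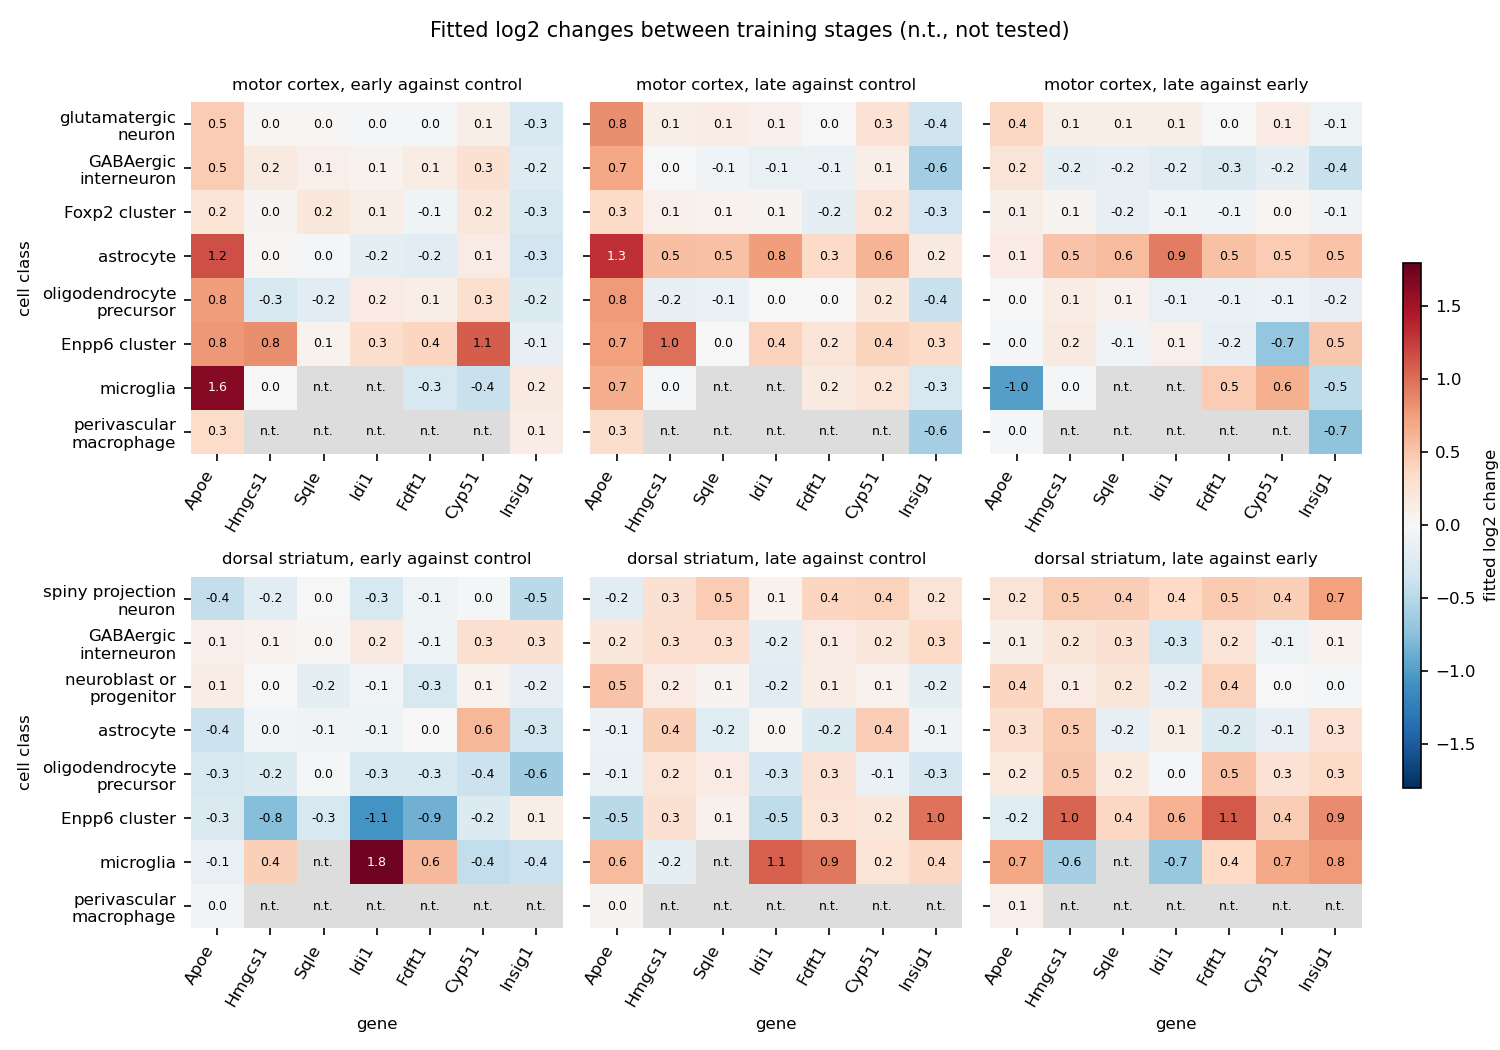
Fitted log2 change of each gene (columns) in each cell class (rows) for the 3 stage comparisons of motor cortex (top) and dorsal striatum (bottom), with red for higher and blue for lower in the first-named stage and grey for pairs that did not pass the filter. No cell was called; Apoe in cortical astrocytes (1.16 and 1.31 against control) and the synthesis genes of the striatal Enpp6 cluster, late against early, hold strong colours, and Idi1 in striatal microglia, early against control (1.75), rests on levels of 1.77 to 7.57 CPM.

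Apoe was higher in trained than in untrained cortex in astrocytes, oligodendrocyte precursors and microglia, without reaching the threshold. In cortical astrocytes it was at 3926 and 7599 CPM in control pools 1 and 2, 15024 and 14119 in the early pools, and 10546 and 13364 in the late pools. Both control pools lay below all 4 trained pools. The fitted log2 change was 1.16 (SE 0.528, edgeR adjusted p = 1) early and 1.31 (SE 0.481, adjusted p = 0.493) late. DESeq2 gave 1.34 late with an adjusted p of 0.0182, and over the 12 alternative fits the adjusted p ran from 7.18e-05 to 0.999. The late change passed the threshold without control pool 1 (0.993), without control pool 2 (1.69) and without late pool 2 (1.71), and the early change without control pool 1 (1.01) and without control pool 2 (1.71). Leaving out a pool left 1 residual degree of freedom in place of 2. Each such fit of this class also took an infinite prior, so that 1 spread was taken for all genes of similar level. With all pools the prior had 20.5 degrees of freedom. Between pools of the same sequencing batch label, the log2 ratio was 0.983 (early pool 1 against control pool 2) and 1.43 (late pool 1 against control pool 1).

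Cortical control pool 1 stood apart among the astrocyte sums. Its 8 microglia markers summed to 3041 CPM, against 101 to 360 in the other 5 pools, and its 8 astrocyte markers to 6282 CPM, against 11908 to 14008. Of the 135 cells named astrocytes in it, 35 belonged to a cluster of 40 cells. In those 35 the microglia markers summed to 5167 CPM and the astrocyte markers to 2181, and Apoe was at 1364. The cells of this pool in the large cluster held 195 CPM of microglia markers and 11773 of astrocyte markers. With the large astrocyte cluster alone (3004 cells), control pool 1 held 7356 CPM of Apoe, close to the 7599 of control pool 2, while the early pools held 15024 and 14119 and the late pools 10563 and 13356. The log2 change there was 0.926 early (SE 0.273, edgeR adjusted p = 0.19) and 0.836 late (SE 0.239, adjusted p = 0.158), and DESeq2 gave an adjusted p of 1 for both. The edgeR values there rest on an infinite prior, so that 1 spread was taken for all genes of similar level. Early pool 2 also stood apart in that cluster by Gfap and Vim, genes of reactive astrocytes, at 1336 and 1757 CPM, against 29.5 to 68.1 and 16.5 to 35.5 in the other pools. Its Apoe lay below that of early pool 1.

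In cortical oligodendrocyte precursors Apoe was at 1709 and 3381 CPM in the control pools, 5855 and 5090 in the early pools and 2665 and 5415 in the late pools. Both early pools exceeded both controls, while late pool 1 lay below control pool 2; both class A pools were low. The log2 change was 0.755 (SE 0.215, edgeR adjusted p = 0.989) early and 0.763 (SE 0.192, adjusted p = 1) late, and 0.792 and 0.641 within batch labels. The 8 astrocyte markers summed to between 648 and 810 CPM in these precursors in every pool, and early pool 2, with 5090 CPM of Apoe, had the lowest sum. Their part in the Apoe level was not tested.

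In cortical microglia Apoe was at 267 and 302 CPM in the control pools, 585 and 1160 in the early pools and 379 and 481 in the late pools. The 3 stages did not overlap, and early pool 2 was highest. The log2 change, early against control, was 1.64 (SE 0.403, edgeR adjusted p = 1), and 0.948 without early pool 2. Without early pool 1 it was 2.12 and passed the threshold, as did late against early (-1.46), which was -0.311 without early pool 2. Late against control it was 0.651 (adjusted p = 0.999) and late against early -0.992 (SE 0.393, adjusted p = 1). The 7 markers of perivascular macrophages, the class richest in Apoe, summed to 12.4 and 4.11 CPM in the control, 45.8 and 25.7 in the early and 14.5 and 15.3 in the late microglia, with 3 to 6 of 7 detected. Their part in the result was not tested. Macrophages themselves held 47022, 32180, 42887, 42934, 46176 and 46854 CPM of Apoe, with 1 control pool below the rest.

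In cortical neurons Apoe was highest in the late pool of class A. Glutamatergic neurons held 40.6 CPM in late pool 1 and 12.2 to 16.0 in the other 5 pools, and GABAergic interneurons 51.2 in late pool 1 and 18.1 to 29.3 elsewhere. The microglia markers in glutamatergic neurons summed to 86.9 CPM in late pool 1 and 61.4 in control pool 1, the class A pools, and to 26.0 to 42.0 in the rest. In GABAergic interneurons they summed to 105 and 134 CPM in those 2 pools and to 35.4 to 45.9 in the rest. Their part in the neuronal Apoe was not tested.

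Striatal astrocytes held 18988 and 20716 CPM in the control pools, 18440 and 15930 early and 15329 and 21530 late, so both early pools were below both controls while the late pools overlapped with the other stages. The pools differed in their mix of astrocyte clusters. A cluster led by Gfap and Thbs4, which held less Apoe than the others in each pool, made up 136 of 411 and 126 of 580 cells in the control, 208 of 661 and 210 of 515 in the early and 243 of 361 and 297 of 844 in the late pools. Within it the control pools held 11781 and 16161 CPM and the early pools 16070 and 13819, and these overlapped. In another cluster they held 21783 (26 cells) and 22327 CPM in the control and 19736 and 17568 in the early pools, which lay lower. The part of this mix in the class values was not tested. The log2 change was -0.39 early and -0.10 late against control. Striatal oligodendrocyte precursors ranged from 4591 to 6372 CPM and macrophages from 51841 to 64314 over the 6 pools. In striatal microglia late pool 1 was highest, at 1846 CPM, against 639 to 1048 in the other 5, and the astrocyte markers in them summed to 408 CPM in that pool, 253 in late pool 2 and 142 to 172 in the rest; their part was not tested. Both late pools lay above both controls, with a log2 change of 0.57 (edgeR adjusted p = 0.978). In striatal neuroblasts Apoe was at 275 and 284 CPM in the control, 326 and 281 in the early and 428 and 378 in the late pools, so that both late pools were above the other 4. The log2 change, late against control, was 0.52 (SE 0.122, edgeR adjusted p = 0.183), and 0.64 within the batch label. Clusters of this class differed widely in Apoe, and the part of their mix in this change was not tested.

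The difference between regions was tested with an interaction term over the 12 pools in the classes that both regions held. The barcode class was 1 term for both regions there. The values below therefore need not equal the differences between the changes given above for each region. Apoe was not called in any of these, where 0.0101% (early) and 0.0118% (late) of all gene and class pairs were. The striatal minus the cortical log2 change, early against control, was -1.36 in oligodendrocyte precursors (SE 0.292, edgeR adjusted p = 0.773), -1.77 in astrocytes (SE 0.49, adjusted p = 0.611), -2.08 in microglia (SE 0.502, adjusted p = 1) and -1.37 in the Enpp6 cluster (SE 0.506, adjusted p = 0.672). In macrophages it was -0.26 (SE 0.333). Late against control the astrocyte value was -1.43 (SE 0.49, adjusted p = 0.464) and that of oligodendrocyte precursors -0.89 (SE 0.291, adjusted p = 1). The cortical astrocyte changes of 1.16 early and 1.31 late were 0.926 and 0.836 with the large astrocyte cluster alone. The interaction was not fitted for that cluster. In microglia the late value was -0.058 (SE 0.498, adjusted p = 1), with changes of 0.65 in cortex and 0.57 in striatum. None passed the threshold.

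**Figure D3:**
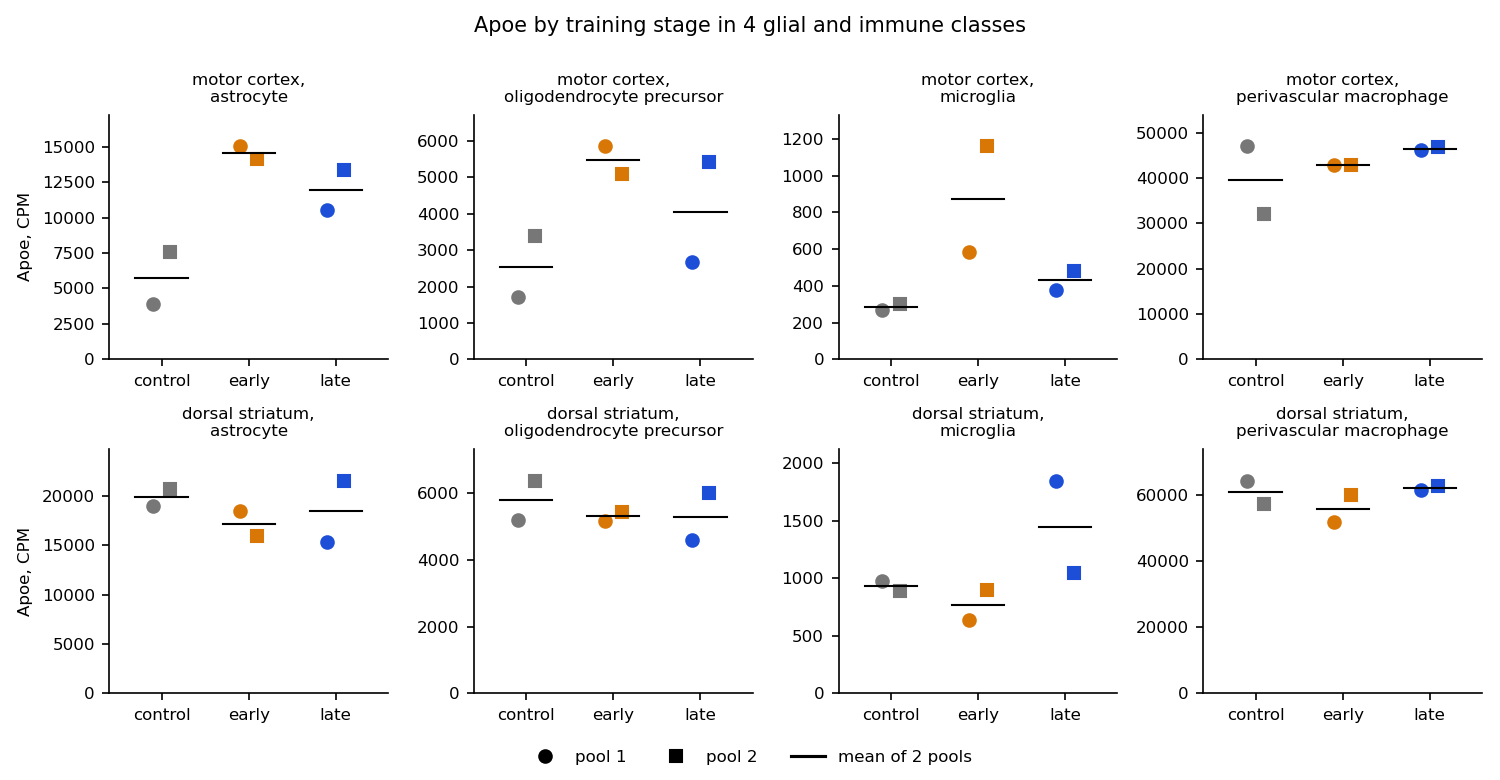
Apoe in CPM (vertical axes, from 0) by training stage in 4 classes of each region, with 1 point per pool of 2 mice and a line at the mean of the 2 pools. In cortical astrocytes both control pools (3926 and 7599 CPM) lie below the 4 trained pools (10546 to 15024), while in striatal astrocytes both early pools lie below both control pools and the late pools span the range of the others. The lower cortical control pool held 7356 CPM in the large astrocyte cluster alone.

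The synthesis genes of cortical astrocytes had log2 changes between -0.35 (Insig1) and 0.15 (Cyp51) early against control, with no call at any stage. In the model with the barcode class, all 7 members had positive log2 changes late against control and late against early in cortical astrocytes, with medians of 0.543 and 0.52 against 0.0241 and -0.0101 over all genes tested in that class. Without the barcode class 7 and 5 of 7 were positive, with medians of 0.472 and 0.34. The counts rested on single pools. Without control pool 1 or late pool 1, 4 of 7 were positive late against control, with medians of 0.122 and 0.111, and without control pool 2 or late pool 2 all 7 were, with medians of 1.03 and 1.04. Late against early, 6 or 7 of 7 were positive with any pool left out, with medians of 0.287 to 1.08. Early against control, the 7 members went from 1 positive without control pool 1 to 7 positive without control pool 2 (medians -0.174 and 0.734). Late against early, Apoe had a fitted change of 0.15 with both late pools below both early pools, and of -0.16 without the class. The mean levels also ran against the fitted sign for Cyp51 late against early (179 CPM late, 193 early) and for Insig1 late against control (325 CPM late, 341 control). Of the listed pathway, 19 of 20 tested genes had a positive change in each of these comparisons, none of them called. Without the class the counts were 19 late against control and 16 late against early. In the large cluster alone Hmgcs1 was 0.318 higher late than control, Idi1 0.451, Cyp51 0.284, Sqle 0.233 and Fdft1 0.0868, while Insig1 was at -0.256. Late against early, all 6 had positive fitted changes there, of 0.281 (Cyp51) to 0.762 (Idi1). With both clusters, Idi1 passed the threshold late against control without control pool 2 (1.69) or late pool 2 (1.7), and was at -0.0617 without control pool 1 and -0.0727 without late pool 1. The passes of Idi1 rest on the infinite prior given above for the fits of this class with a pool left out. The sign for Insig1, late against control, turned when the small cluster was left out.

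In cortical neurons Insig1 had negative fitted changes late against control, none of them called. GABAergic interneurons held 78.1 and 58.6 CPM in the control, 50.7 and 42.2 in the early and 50.7 and 35.6 in the late pools. Both controls were above the 4 trained pools, by a log2 change of -0.62 late (SE 0.168, edgeR adjusted p = 1) and -0.62 within the batch label. Glutamatergic neurons held 59.6 and 43.9 CPM in the control and 43.8 and 35.2 in the late pools (log2 change -0.36, SE 0.136, adjusted p = 0.883). The Foxp2 cluster held 63.2 and 43.7 in the control and 48.6 and 33.2 in the late pools, which overlapped (-0.34, adjusted p = 0.867). In the glutamatergic and Foxp2 classes both early pools also lay below both controls, with means of 36.6 and 34.6 CPM (-0.27 and -0.28). Outside neurons the change late against control was -0.4 in oligodendrocyte precursors, -0.29 in microglia and -0.59 in macrophages. It was 0.16 in astrocytes and 0.34 in the Enpp6 cluster. Of the other synthesis genes, Fdft1 also had negative changes in the glutamatergic, Foxp2 and GABAergic classes (-0.0081, -0.16 and -0.12), while Cyp51 had positive ones (0.27, 0.23 and 0.11). Neither was called.

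In the cortical Enpp6 cluster, Hmgcs1 was at 162, 381, 870, 302, 349 and 643 CPM and Cyp51 at 50.5, 119, 285, 115, 106 and 111 CPM in the 6 pools. Early pool 1 was highest for both. The 8 oligodendrocyte markers, the genes of mature myelin-forming cells, summed to 51965 CPM in that pool and to 16921 to 39762 in the other 5, and their part in the level of these genes was not tested. The cluster had 31 cells in control pool 1 and 109 to 203 in the other pools.

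In striatum the Enpp6 cluster held the lowest adjusted p-values of the members. Its changes late against early are between pools of different batch labels. In the model with the barcode class, all 6 synthesis genes had positive changes late against early, with a median of 0.736 against -0.00341 over all genes of the class. So did 19 of 20 tested genes of the listed pathway, 12 of them at an unadjusted p under 0.05, as were 10.2% of all genes of the class, and none called. Early against control, 1 of 6 (median -0.529) and 0 of 20 of the pathway were positive, with none called. Without the barcode class the counts were 6 of 6 (median 0.322) and 18 of 20 late against early, and 2 of 6 (median -0.149) and 6 of 20 early against control. With 1 pool left out, all 6 stayed positive late against early (medians of 0.582 to 1.5). Early against control 0 or 1 of 6 was positive when any other pool than control pool 2 was left out, and without control pool 2 4 of 6 were, with a median of 0.15 and Cyp51 at 0.672. For Cyp51 the change late against early was 0.45 with the class and 0.011 without it, and its mean was 129 CPM late and 138 early. Fdft1 was at 83.0 and 140 CPM in the control, 77.1 and 71.9 in the early and 131 and 145 in the late pools, and both late pools lay above both early pools. Its log2 change late against early was 1.11 (SE 0.285, edgeR adjusted p = 0.06); leaving out each pool in turn it was 1.02 to 1.66, and it passed the threshold without control pool 1 (1.02), control pool 2 (1.02) or late pool 1 (1.03). Insig1 was at 57.1 and 71.3 CPM in the control, 66.1 and 93.3 in the early and 118 and 138 in the late pools, both late pools above the other 4. Its log2 change was 0.85 late against early (adjusted p = 0.219) and 0.97 late against control (SE 0.285, adjusted p = 0.563; 1.05 within the batch label).

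Hmgcs1 in the striatal Enpp6 cluster was at 114 and 582 CPM in the control, 217 and 450 in the early and 189 and 622 in the late pools. The pools of the stages overlap, and the low pool is of class A in both the control and the late group. The log2 change late against early was 1.05 (SE 0.273, edgeR adjusted p = 0.0639) with the barcode class as a term and 0.37 without it. It passed the threshold without control pool 1 (0.959), control pool 2 (0.953) or late pool 1 (0.962), and early against control it did so without control pool 1 (-0.879), late pool 1 (-0.882) or late pool 2 (-0.879). Late against early it was down to 0.637 without early pool 1 and up to 1.67 without early pool 2 and 1.62 without late pool 2. Early against control, from -0.77 with all pools, it was -0.2 without control pool 2, -0.341 without early pool 1 and -1.39 without early pool 2. None of these 6 passed the threshold. Idi1 was at 62.3 and 207 CPM in the control, 82.6 and 98.6 in the early and 86.6 and 118 in the late pools, and 1 control pool alone was high. Its log2 change early against control was -1.07 (SE 0.306, adjusted p = 0.145), and 0.07 without control pool 2. Without control pool 1, late pool 1 or late pool 2 it was -1.27 and passed the threshold. The oligodendrocyte markers in the cluster summed to 31421 and 41214 CPM in the control, 21136 and 24551 in the early and 36161 and 31408 in the late pools. They were lowest in both early pools, and their part in these differences was not tested. The cluster had 65 to 157 cells a pool. Its fits without a control or a late pool took an infinite prior, against 19.9 degrees of freedom with all pools. The passes of Fdft1, Hmgcs1 and Idi1 above thus rest on 1 spread taken for all genes of similar level. Without early pool 1 or early pool 2 the prior was 11 and 11.5.

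Spiny projection neurons, the class with the most cells, had fitted changes of the same sign. All 6 synthesis genes had positive changes late against early (median 0.448, all genes 0.00476) and late against control (median 0.327, all genes 0.0111), as did 19 and 17 of 21 pathway genes. Without the barcode class all 6 were again positive, with medians of 0.178 and 0.336. Late against early, Hmgcs1 was then at 0.083 and Cyp51 at 0.102. Fdft1 was at 72.1 and 52.0 CPM in the control, 41.0 and 57.4 in the early and 87.7 and 68.7 in the late pools, so both late pools were above both early pools (log2 change 0.47, SE 0.167, edgeR adjusted p = 0.493). Insig1 was at 21.5, 26.5, 14.3, 24.1, 23.3 and 32.2 CPM and Sqle at 22.6, 29.1, 27.1, 35.1, 25.6 and 44.7. Their stages overlap; the log2 changes late against early were 0.72 (SE 0.235, adjusted p = 0.493) and 0.44 (SE 0.171, adjusted p = 0.493). Without early pool 2, Hmgcs1 (0.866), Idi1 (0.938), Fdft1 (0.723), Cyp51 (0.774) and Insig1 (1.14) passed the threshold late against early. Without early pool 1 the same changes were 0.136, -0.0719, 0.246, 0.15 and 0.391, none past the threshold, with that of Idi1 turned. Without late pool 2 Hmgcs1 was at 0.306, Cyp51 at 0.0253 and Sqle at 0.132. The prior had 201 degrees of freedom without early pool 2 and 1080 without early pool 1, against 7.16 with all pools.

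**Figure D4:**
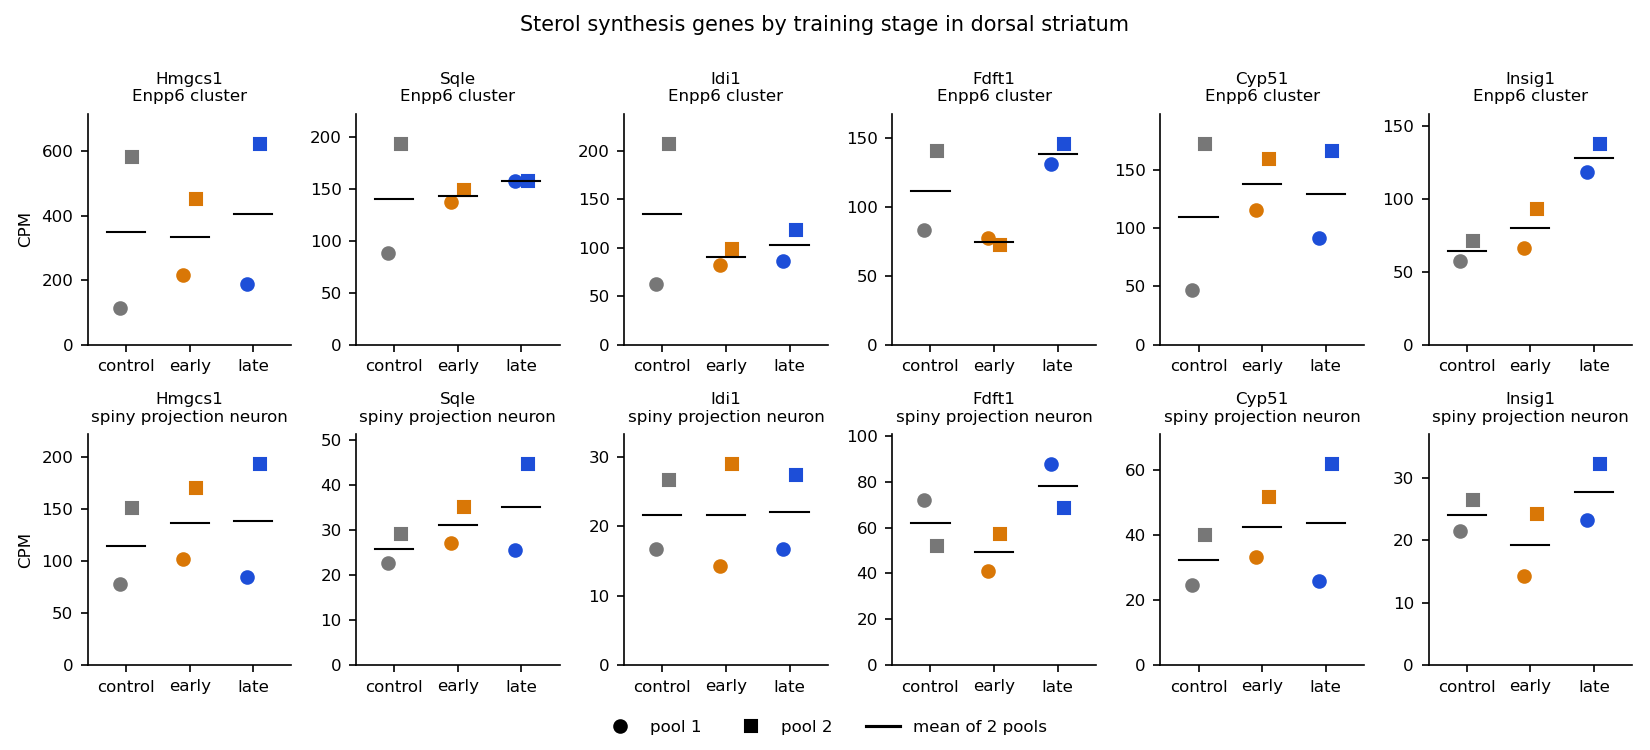
CPM (vertical axes, from 0) of the 6 synthesis genes by training stage in the Enpp6 cluster (top) and spiny projection neurons (bottom) of dorsal striatum, with a circle for pool 1, a square for pool 2 and a line at their mean. Fdft1 and Insig1 in the Enpp6 cluster have both late pools above both early pools (131 and 145 against 77.1 and 71.9 CPM for Fdft1), while Hmgcs1 differs more between the pools of a stage than between stages.

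Other striatal classes gave single differences. Cyp51 in astrocytes was at 34.6 and 68.5 CPM in the control and 104.9 and 105.7 in the early pools, with 45.5 and 92.1 late (early against control 0.60, SE 0.199, edgeR adjusted p = 0.646; 0.62 within the batch label). Fdft1 in neuroblasts or progenitors was at 88.6 and 83.8 CPM in the early and 144 and 113 in the late pools (0.42, adjusted p = 0.54). In oligodendrocyte precursors 0 of 7 members had a positive fitted change early against control, with a median of -0.278 against -0.00622 over all genes. In the model without the barcode class, 3 of 7 were positive (median -0.0301). Insig1 there had a log2 change of -0.64 (adjusted p = 0.892). Over all classes, 15 of 49 fitted changes in striatum were positive for the early pools against the controls, 34 for the late pools against the controls and 37 for late against early. In cortex the counts were 32, 35 and 25. Of all gene and class pairs, 50.5%, 50.2% and 49.6% were positive in striatum and 51.1%, 51.1% and 49% in cortex. The classes of a pool share that pool, so these pairs are not independent. With the barcode class left out they were 22, 35 and 32 in striatum and 29, 34 and 22 in cortex, and 13 of the 49 striatal and 11 of the 49 cortical changes early against control turned sign.

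The wider lists gave no call among 21 synthesis genes or 10 genes of SREBP control and uptake in any class or comparison. Of the pathway pairs tested, 85, 97 and 75 of 141 were higher in cortex in the early over the control, the late over the control and the late over the early pools, and 48, 102 and 111 of 140 in striatum. A model lacking the barcode class gave 89, 98 and 67 in cortex and 81, 102 and 93 in striatum. For SREBP control and uptake the counts were 21, 30 and 36 of 65 in cortex and 33, 34 and 30 of 61 in striatum, and for export, transport and turnover 65, 52 and 48 of 115 and 42, 47 and 59 of 112. Of all gene and class pairs, 49% to 51.1% were higher in these comparisons in the model with the barcode class. Only 2 listed pairs rose past the threshold, both of the export list, late against early in striatum. They were 2 of its 112 pairs there, where 0.0916% of all gene and class pairs were called. Clu, an apolipoprotein of astrocytes, rose in microglia by 2.44 (SE 0.359, edgeR adjusted p = 0.0284), from 7.55 and 11.3 CPM early to 77.7 and 43.6 late, with 15.1 and 13.6 in the control pools. The rise moved with the astrocyte markers in those microglia given above, whose part was not tested, and without the barcode class the adjusted p was 0.578; without late pool 2 it was 0.0543. Npc2, a lysosomal cholesterol-binding protein, rose in the Enpp6 cluster by 1.11 (SE 0.251, adjusted p = 0.0297), from 162 and 234 CPM early to 436 and 371 late, with 280 and 398 in the controls. Without the barcode class its adjusted p was 0.733, with presumed doublets kept 0.706, without early pool 1 0.886 and without early pool 2 0.132. DESeq2 gave 0.368 for Npc2 and 0.179 for Clu. The oligodendrocyte markers of the striatal Enpp6 cluster, given above, were also lowest in both early pools, and their part in the Npc2 change was not tested. Over 12 alternatives the adjusted p ran from 5.49e-08 to 0.578 for Clu and from 0.00425 to 0.886 for Npc2.

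In trained mice the hemisphere labelled contralateral was compared with the ipsilateral one, with the pool as a block. None of the members was called, where 0.0912% of gene and class pairs were called in cortex and 0.0451% in striatum. The pairs with an unadjusted p under 0.01 were Idi1 in the striatal Enpp6 cluster, 0.70 higher contralaterally (SE 0.255, edgeR adjusted p = 1), Hmgcs1 in striatal oligodendrocyte precursors, 0.37 higher contralaterally (SE 0.111, edgeR adjusted p = 0.953), Cyp51 in the cortical Enpp6 cluster (0.64, SE 0.206, adjusted p = 0.42), Idi1 in cortical oligodendrocyte precursors (0.34, SE 0.123, adjusted p = 0.757) and Apoe in cortical microglia (0.21, SE 0.0667, adjusted p = 1). Over all genes, 4022 of 75625 pairs in cortex and 2779 of 71025 in striatum had an unadjusted edgeR p under 0.05. The share of all pairs under 0.01 is not given here, so the member pairs named above cannot be set against it. All 7 members were higher contralaterally in the striatal Enpp6 cluster, by a median of 0.315, against 50.4% of all genes of the class and a median of 0.00311. That class had 79 to 157 cells in its trained pools, split over both hemispheres. The member counts of the other classes are not given here.

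The levels of the members differed between class A and class B pools to different degrees, as a description without a test. In the control and late groups of each region, class A and class B are 1 pool each, so their levels could be set side by side class by class. Hmgcs1 was lower in the class A pool in 27 of 30 such pairs (median log2 ratio -0.897), Cyp51 in 27 of 30 (-0.829), Sqle in 25 of 30 (-0.441) and Idi1 in 23 of 30 (-0.255). Insig1 was lower in 17 of 30 (-0.129), Apoe in 17 of 32 (-0.0245) and Fdft1 in 9 of 29 (0.229). Over all genes, 59% of 339589 such pairs were lower in class A, with a median of -0.165, and 16.9% had a ratio as low as the median of Hmgcs1. No early pool is of class A. Leaving the class out of the model moved the log2 change early against control, in either direction, by a median over cell classes of 0.299 for Cyp51, 0.293 for Apoe, 0.292 for Hmgcs1, 0.253 for Insig1, 0.202 for Idi1, 0.172 for Sqle and 0.141 for Fdft1. Late against control, where both groups hold both classes, no member's median moved by more than 0.0467.

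**Figure D5:**
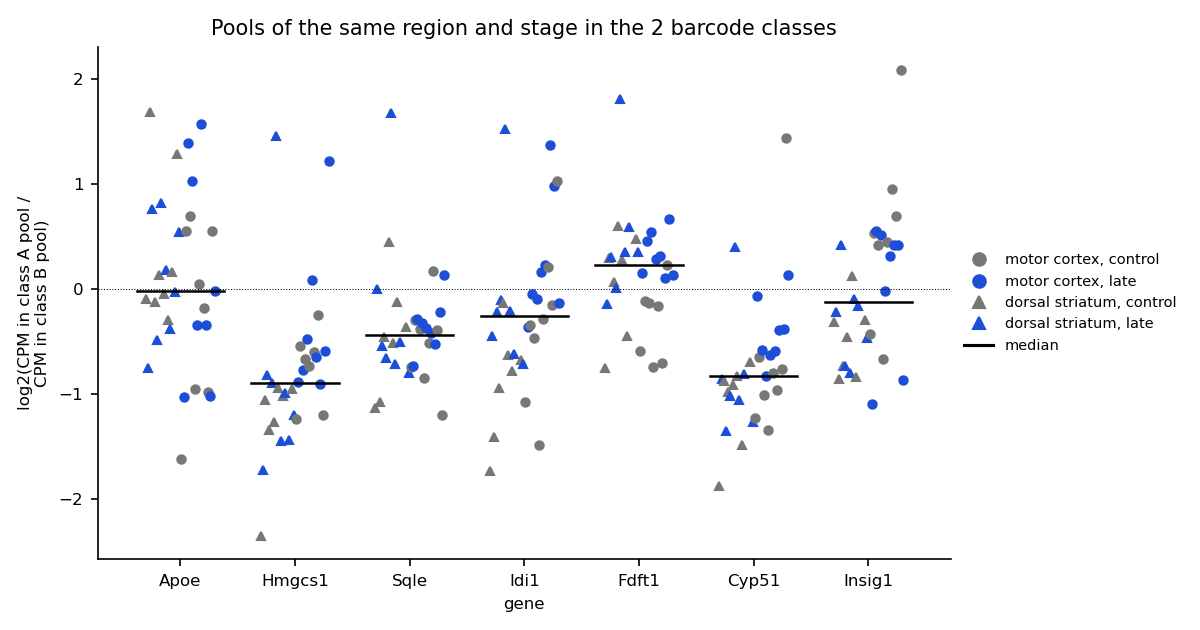
Log2 ratio of the CPM in the class A pool to that in the class B pool (vertical axis) for each gene, with 1 point per cell class, region and stage (control or late) and a line at the median. Hmgcs1 and Cyp51 lie mostly below 0 (27 of 30 points each), Fdft1 mostly above, and Apoe on both sides. Points of a region and stage come from the same pools and are not independent.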

How the data were processed

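Single-cell 3′ RNA libraries came from 24 hemisphere samples of 12 pools of 2 mice, and counts were read for 23 of them. The authors deposited raw counts of UMIs per gene and barcode. Per the submitters' processing notes they used Cell Ranger 3.1.0 with GRCm38 (mm10), and per the file headers the matrices were written by software version 3.0.2. How barcodes were called as cells is not given in the sources used here.

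Cells with at least 500 genes, at least 1000 UMIs and at most 20% mitochondrial UMIs were kept (103715 of 127901 barcodes). Presumed doublets, scored against simulated doublets and taken at 0.8% per 1000 barcodes of a library, were removed (5103 cells). Per library 469 to 7087 cells passed, with median depths of 2048 to 5725 UMIs; this depth sets the counting error of low genes. Clustering was done by region, with 2000 variable genes and 40 principal components (Python 3.11.15, scikit-learn 1.9.0, leidenalg 0.10.2, 20 neighbours, resolution 1.5). Clusters were named where at least 3 markers of 1 type were on and the leading genes did not go against the name, except that a striatal cluster led by cholinergic genes was kept with the GABAergic interneurons, whose marker list holds Chat.

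Counts were summed per pool and class, with both hemispheres of a pool added. Tests covered 8 classes per region of neurons, glia, neuroblasts, microglia and macrophages, each with at least 20 cells in every pool. Vascular and ependymal classes were not tested, although some had as many cells. These used edgeR 4.0.16 (R 4.3.3) with TMM factors, filterByExpr and the quasi-likelihood test, with stage and barcode class as terms over the 6 pools of a region and Benjamini-Hochberg adjustment over all genes of a class. The region by stage test used all 12 pools, and the hemisphere test the 8 libraries of trained mice, blocked by pool; the block pairs the samples because both hemispheres come from the same mice per the titles. DESeq2 1.42.0, RLE factors, no low-count filter, no barcode class, stricter cells (1000 genes, 2000 UMIs, 10% mitochondrial), doublets kept and each pool left out were alternatives. The scripts were tested on simulated data with known changes.

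The 7 members and the lists of pathway and marker genes were chosen with earlier results of these data known. Members are named in full; of the listed genes, those called and the 4 with the highest mean CPM of each list are named, and for each member the 3 genes most like it among those reaching 50 CPM in at least 1 class. Some genes that these rules select are not reported here. Genes outside these rules, named with their values seen, are cluster leaders, markers and Gfap and Vim. Promoter sequences and motif counts are from RefSeq tables.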

Additional observations from a re-analysis of the deposited data

How the results depend on the processing

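The 33 log2 changes of members with an unadjusted p under 0.05 were followed one by one. Changing 1 choice at a time left 194 of 200 values of these with their direction and side of the threshold, and 6 passed it. Over all 294 member changes, 126 of 1749 values turned sign, 54 of them without the barcode class. Leaving out each pool, 294 of 1764 turned. Of the 33 followed, 176 of 198 kept direction and side, 21 passed it and 1 turned: Idi1 in the striatal Enpp6 cluster, early against control, to 0.0668 without control pool 2 (-1.27 to 0.0668 over the pools left out). The class with the highest mean stayed the same for 13 of 14 gene and region pairs with stricter cells, for 14 with doublets kept and for 12 with the mean taken over cells. Of the mean levels, 154 of 168 moved by less than 1 SD.

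Counts of calls over all genes moved far more. For early against control in cortex (5 calls) they were 156 with no low-count filter, 12 with stricter cells, 25 with the large astrocyte cluster alone and 95 to 338 with a pool left out. In striatum (69 calls) they were 601 with no filter, 44 with DESeq2, 4 with no barcode class, 109 with stricter cells and 162 to 685 with a pool left out. For late against control in cortex (38 calls) they were 866 with no filter, 9 with DESeq2, 0 with no barcode class (where 1039 had an unadjusted p under 0.05), 95 with doublets kept, 13 with the large cluster alone and 201 to 1038 with a pool left out. In striatum (23 calls) they were 880 with no filter, 4 with no barcode class, 150 with stricter cells and 221 to 1059 with a pool left out. For late against early in cortex (4 calls) they were 199 with no filter, 13 with stricter cells, 15 with the large cluster alone and 51 to 349 with a pool left out. In striatum (77 calls) they were 949 with no filter, 25 with DESeq2, 0 with no barcode class, 15 with doublets kept, 190 with stricter cells and 108 to 840 with a pool left out. The region by stage calls went from 6 to 2 (early) and from 7 to 4 (late) with no barcode class.

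With all pools the fits had 2 residual degrees of freedom and a finite prior in 16 of 16, while the fit of the large cortical astrocyte cluster alone had an infinite prior; with a pool left out they had 1, and the prior was infinite in 35 of 96. Calls among the members (0 throughout) became 1 with no filter in cortex early against control and 0 to 1 with a pool left out, 2 with no filter, 1 with DESeq2 and 0 to 2 with a pool left out in cortex late against control, and 0 to 1 with a pool left out in cortex late against early. In striatum they became 0 to 2 with a pool left out early against control, 1 with no filter and 0 to 1 with a pool left out late against control, and 1 with no filter and 0 to 5 with a pool left out late against early. The pairs called with no filter were Apoe in cortical microglia early (1.7), in cortical glutamatergic neurons and oligodendrocyte precursors late (0.822 and 0.779) and in striatal neuroblasts late (0.519), and Insig1 in spiny projection neurons late against early (0.73). The cause of these shifts was not tested.

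The block for the pool pairs both hemispheres of the same mice. Without the replicate block, with stage and barcode class in its place, the hemisphere calls fell from 69 to 3 in cortex and from 32 to 1 in striatum; with no filter they were 251 and 88, and with a pool left out 35 to 218 and 14 to 58. It changed no call among the members. The large astrocyte cluster alone was an alternative chosen after seeing the data, as was leaving the cholinergic cluster out of the striatal GABAergic interneurons. The latter gave 69, 22 and 78 calls in striatum (69, 23 and 77 with it), none of a member, and turned 3 of 21 member changes of that class.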

Other observations

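Several classes outside the tests held the members at high levels, reported as values. Striatal ependymal cells, the ciliated lining of the ventricle, held Apoe at 9041 ± 1217 CPM (SD, n = 6 pools) and the highest mean of Sqle in striatum, 165 ± 49.2. Fibroblasts held Apoe at 6706 ± 1457 CPM in cortex and 13493 ± 1263 in striatum (n = 5 pools each), and endothelial cells at 1570 ± 318 and 1894 ± 419 (n = 6). Striatal glutamatergic neurons, with 197 cells in the 4 pools that had at least 20, held the highest striatal means of Hmgcs1 (435 ± 145 CPM) and Fdft1 (131 ± 37.4). The few mature oligodendrocytes held Hmgcs1 at 385 ± 128 CPM in cortex (n = 2 pools) and 266 ± 119 in striatum (n = 3).

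Striatal astrocytes fell into 3 clusters. The cluster led by Gfap and Thbs4 held 11781 to 17224 CPM of Apoe over the 6 pools. Another cluster held 17568 to 24017 CPM in 5 pools, and 16302 in late pool 1, where it had 10 cells. The third drew 357 of its 402 cells from the class A pools, 249 from control pool 1 and 108 from late pool 1, and held 23660 and 19936 CPM there.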
